A study of Mus musculus with 11 samples.

Results

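The interferon-stimulated genes described here are 44 genes of the mouse that type I, type II or type III interferon is known to induce, taken by gene symbol from a table of raw read counts that lists 29307 genes. All 44 were found in the table, and all 44 were among the 12905 genes with enough counts to be tested. Their levels were compared between hepatic sinusoidal endothelial cells (ECs) of germ-free (GF) mice, which carried no microorganisms, and of conventionally raised (CONV-R) mice, which carried a specific-pathogen-free microbiota. The study asked how the gut microbiota shapes the transcriptome of these cells. The 5 GF and 6 CONV-R mice were untreated C57BL/6J males of 10 to 12 weeks from the same colonies, on the same diet, and each mouse gave 1 library, so the values below are mouse by mouse. The CONV-R microbiota was not defined by species in the sources used here, and the GF mice lacked a microbiota throughout life.

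Interferons are secreted proteins that put cells into an antiviral state. Type I interferons bind the receptor made of Ifnar1 and Ifnar2, whose kinases Jak1 and Tyk2 phosphorylate Stat2. Stat2 joins with Irf9 in the complex ISGF3, which binds the interferon-stimulated response element (ISRE) upstream of its targets. Interferon gamma, the type II interferon, binds Ifngr1 and Ifngr2 and acts through Jak1 and Jak2 on genes with a gamma-activated site (GAS). The products of the target genes sense foreign nucleic acids, degrade or bind viral RNA, or attack the vacuoles that hold bacteria and parasites. Liver sinusoidal ECs line the capillaries that receive portal blood from the gut, and they carry such sensors and respond to interferons.

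Promoter windows of 5 genes that were higher in GF mice (Igtp, Irgm2, Stat2, Gbp7 and Ifit1), of the Ifit1 relatives Ifit3 and Ifit3b and of Isg15, which did not pass the test, are shown here because the same short elements occurred in both. Promoter sequence came from RefSeq on GRCm38.p6 and was searched over the 250 bases before each start, on both strands. It was matched for 33 of the 44 members; Dhx58, Zbp1, Oas2, Mx1, Mx2, Rtp4, Ifi27, Usp18, Parp9, Parp14 and Gbp4 had no entry. The ISRE core GAAANNGAAA, which reads TTTCNNTTTC on the other strand, was found for 16 of the 33 (48.5%), against 3.46% of 27025 genes with a promoter in the same table and 3.33% of the tested genes with one. The GAS core TTCNNNGAA, the same on both strands, was found for 11 of the 33 (33.3%), against 8.13% and 7.32%. The windows below run 5′ to 3′ on the strand of the gene, with each ISRE core in capitals. Overlapping cores were counted once each.
Igtp: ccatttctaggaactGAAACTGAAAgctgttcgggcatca
Irgm2: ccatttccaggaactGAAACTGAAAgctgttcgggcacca
Stat2: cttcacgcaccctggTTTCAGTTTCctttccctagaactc
Gbp7: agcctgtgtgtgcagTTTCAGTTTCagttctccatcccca
Ifit1: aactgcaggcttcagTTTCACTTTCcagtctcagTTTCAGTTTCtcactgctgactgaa
Ifit3: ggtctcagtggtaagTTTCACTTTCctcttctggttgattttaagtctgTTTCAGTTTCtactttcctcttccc
Ifit3b: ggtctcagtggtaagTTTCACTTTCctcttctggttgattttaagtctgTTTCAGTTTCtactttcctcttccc
Isg15: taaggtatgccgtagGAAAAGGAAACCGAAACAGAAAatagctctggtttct

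The Igtp window lies at chr11:58199507-58199546 and the Irgm2 window at chr11:58214898-58214937, both on the plus strand, and the pair differs at 2 of 40 bases. The Stat2 window is at chr10:128270261-128270300 and the Gbp7 window at chr3:142530268-142530307, both on the plus strand. The Ifit windows lie on the plus strand of chromosome 19, at chr19:34640770-34640828 for Ifit1, chr19:34583358-34583431 for Ifit3 and chr19:34607754-34607827 for Ifit3b. The 74 bases shown for Ifit3 and Ifit3b differ at 0 positions, so these near copies carry the same pair of cores. The Isg15 window is at chr4:156200860-156200911 on the minus strand. Of the 11 members that passed the test below, 6 had an ISRE core (54.5%; those shown and Gbp2), and of the 22 matched members that did not, 10 had one (45.5%). A GAS core was present for 4 of the 11 (36.4%) and 7 of the 22 (31.8%). A match to these letters is a description of the promoter and not evidence of binding.

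Library totals ran from 7922855 to 14669352 counts in CONV-R mice and from 7242717 to 16164588 counts in GF mice. The 12 fixed markers of liver sinusoidal endothelium were all detected, with summed levels of 29198 to 35618 CPM (read counts of a gene scaled by the TMM-corrected total of its library) in CONV-R and 28152 to 39414 CPM in GF mice (p = 0.379, exact permutation test over mice, two-sided). None of the 12 passed the edgeR test described below, but at an unadjusted p under 0.05 there were 6 higher in GF mice (Stab1, Lyve1, Pecam1, Mcam, Cdh5 and Oit3) and 0 lower, and the median log2FC of the 12 was 0.30. The 10 Kupffer cell markers, none of them without counts, summed to 86.0 to 222 CPM (median 106) in CONV-R and to 197 to 931 CPM (median 288) in GF mice (exact p = 0.00866), with GF mouse 6 the highest, and 7 of the 10 were higher in GF mice in the test described below. The 11 lymphocyte and NK cell markers summed to 7.47 to 15.9 CPM in CONV-R and 4.06 to 6.95 CPM in GF mice (exact p = 0.0108). In libraries of sorted cell pools, more cells of a type and more RNA per cell cannot be told apart, and the part of these other cells in the results below was not tested. CONV-R mouse 3 and GF mouse 6 were often the highest mice for the members. Over all tested genes, too, CONV-R mouse 3 was the highest mouse more often than any other. The libraries of CONV-R mouse 3 (7922855 counts), GF mouse 6 (7819846 counts) and GF mouse 5 (7242717 counts) were the smallest. The part of library size in the results was not tested. CONV-R mouse 3 was the highest of all 11 mice for 14 of the 44 members (31.8%, against 19.9% of all tested genes), GF mouse 6 for 16 (36.4%, against 12.2%) and GF mouse 1 for 10 (22.7%, against 12.2%).

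Of the 44 interferon-stimulated genes, 11 were higher in GF than in CONV-R mice and 0 were lower at an adjusted p under 0.05 (quasi-likelihood test of edgeR, adjusted by the Benjamini-Hochberg method over all 12905 genes; log2FC is GF relative to CONV-R throughout). The 11 were Igtp, Irgm2, Stat2, Trim25, Cmpk2, Gbp2, Ifit1, Irf8, Irf9, Ddx58 and Gbp7. They made up 25% of the members, whereas 7.48% of all tested genes passed, 4.8% in the GF direction and 2.67% in the CONV-R direction. The list was chosen with earlier results of these data known, so the shares given here may follow in part from that choice. At an unadjusted p under 0.05, 19 members were higher and 0 lower in GF mice (43.2% higher, against 12.5% of all tested genes higher and 10.5% lower), and 35 of the 44 estimates were positive and 9 negative (79.5% positive, against 49.1% of all tested genes). The median log2FC of the members was 0.36, against -0.01 over all tested genes and 0.30 over the 12 endothelial markers. The values of 5 members, Igtp, Irgm2, Stat2, Trim25 and Irf9, did not overlap between the groups, and all 5 were higher in GF mice, while 5.59% of all tested genes did not overlap and 3.22% were higher in GF mice without overlap. When GF mouse 5 was left out, 10 members did not overlap (22.7%), against 9.59% of all genes then tested. This was the largest such count. With any other mouse left out, 5 to 7 members did not overlap (11.4% to 15.9%), against 6.15% to 8.08% of all genes then tested. With any 1 mouse left out, 8 to 13 members passed, while 4.74% to 9.62% of all genes did. Leaving out both CONV-R mouse 3 and GF mouse 6 gave 7 members, of which 6 were among the 11, and 5.34% of all genes.

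**Figure D1:**
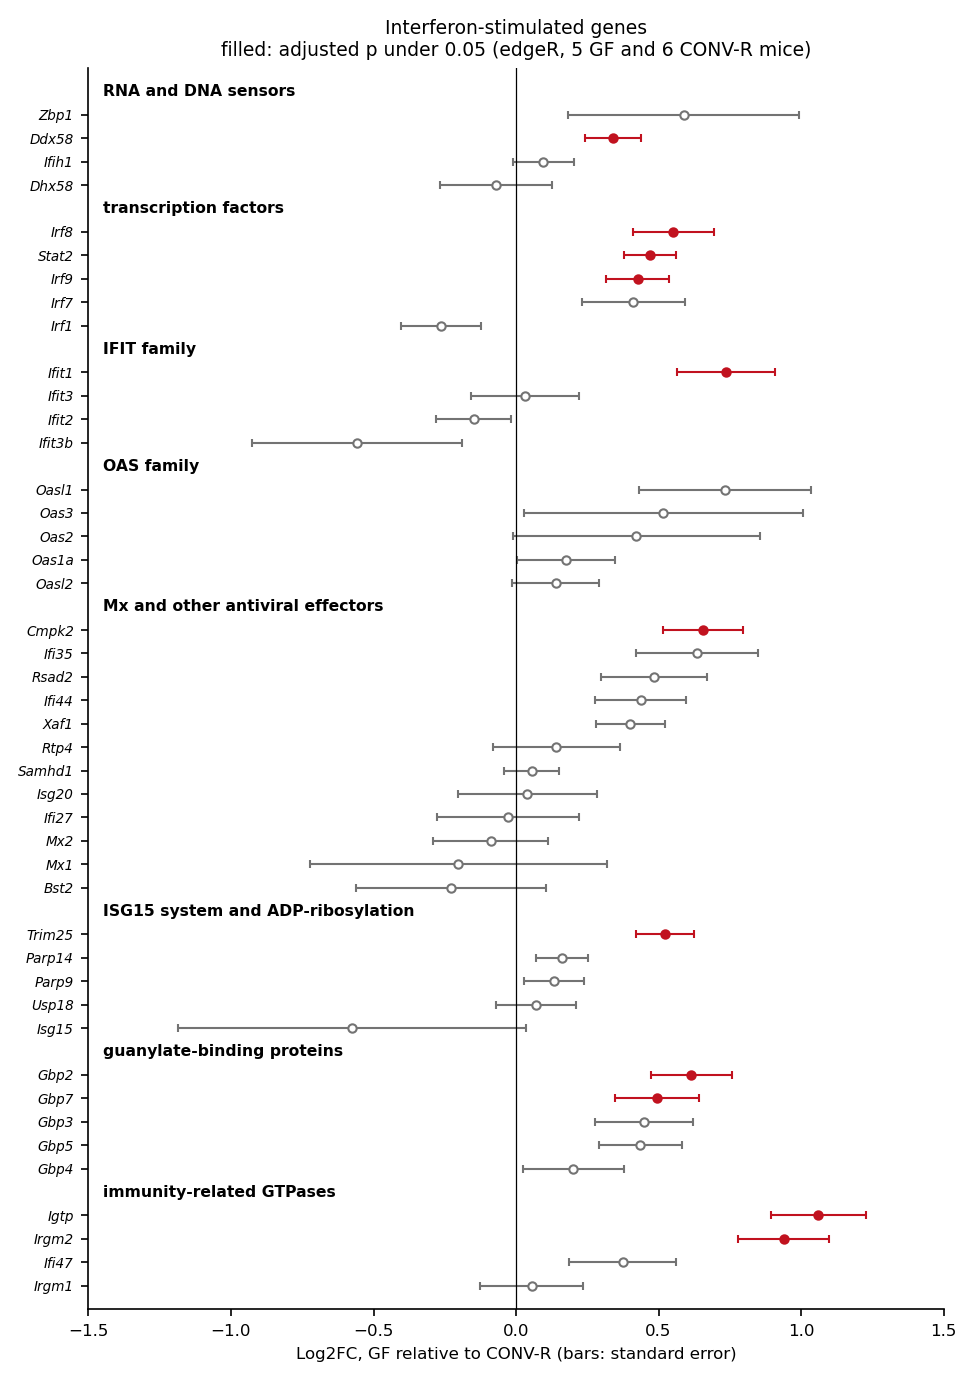
Log2FC of the 44 interferon-stimulated genes, GF relative to CONV-R, with standard errors as bars and the members grouped by role (horizontal axis, log2FC; filled points, adjusted p under 0.05). The 11 filled points all lie to the right of 0, from Ddx58 at 0.34 to Igtp at 1.06, while the members of the IFIT family span -0.56 to 0.74.

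The immunity-related GTPases gave the largest differences. These interferon-inducible GTPases assemble on, or regulate assembly on, the vacuoles of intracellular pathogens. Igtp, also called Irgm3 and at chr11:58199556-58207591, was at 18.9 to 39.2 CPM in CONV-R mice (median 26.3) and at 61.4, 59.1, 57.9, 46.7 and 64.6 CPM in GF mice 1, 2, 4, 5 and 6. The lowest GF value exceeded the highest CONV-R value, and the mean rose from 27.8 ± 7.20 CPM (SD, n = 6) to 57.9 ± 6.79 CPM (SD, n = 5), a log2FC of 1.06 ± 0.17 (SE; edgeR adjusted p = 0.000874). Its neighbour Irgm2, a regulatory GTPase at chr11:58199618-58222782 and the most abundant of the 4 per kilobase averaged over the mice (28.6 CPM per kb in CONV-R and 54.8 in GF mice), was at 83.9 to 135 CPM in CONV-R mice (median 100.2) and at 216, 169.6, 238, 141 and 245 CPM in the GF mice. These groups did not overlap either, with a log2FC of 0.94 ± 0.16 (edgeR adjusted p = 0.00178). Igtp and Irgm2 overlap over 162 exon bases in GENCODE M21, and 11.8% of the 50-base stretches of Igtp and 7.83% of those of Irgm2 also occur in other genes, so some reads may be assigned to either. Irgm2 and Igtp passed in every alternative tried, including without CONV-R mouse 3 or GF mouse 6.

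Irgm1, the third regulatory GTPase of the group, and Ifi47, an effector GTPase, behaved otherwise. Irgm1 ranged from 61.2 to 134 CPM in CONV-R mice (median 72.5) and lay at 68.7, 75.7, 98.7, 88.4 and 101 CPM in GF mice. The highest Irgm1 value of the 11 mice was that of CONV-R mouse 3, and the groups overlapped (log2FC 0.05 ± 0.18, edgeR adjusted p = 0.901). Ifi47 was at 54.0 to 114 CPM in CONV-R mice (median 63.7) and 67.5, 78.9, 106, 91.4 and 116 CPM in GF mice, with a log2FC of 0.37 ± 0.19 (edgeR adjusted p = 0.244), and it passed when CONV-R mouse 3 was left out (adjusted p = 0.0288). Since both genes of a ratio come from the same library, ratios within this family and the IFIT family were compared mouse by mouse, as log2 ratios of CPM. These families were picked after it was seen that some of their members passed and others did not, so the ratios are given as a description, without a test. Igtp over Irgm1 was -1.56 ± 0.28 (SD, n = 6) in CONV-R and -0.57 ± 0.31 (SD, n = 5) in GF mice. Irgm1 over Irgm2 was -0.37 ± 0.27 in CONV-R and -1.21 ± 0.35 in GF mice. Neither of these ratios overlapped between the groups. Igtp over Irgm2 differed by 0.15, a difference within the spread of either group (SD 0.19 in CONV-R and 0.22 in GF mice). Relative to Ifi47, the mean log2 ratio in GF mice was higher by 0.53 for Irgm2 and by 0.69 for Igtp, with overlap, and differed by -0.31 for Irgm1, without overlap.

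The IFIT family, whose products bind viral RNA and the translation machinery, also held 1 member that passed and others that did not. Ifit1, which recognizes RNA caps that lack a methyl group (chr19:34640871-34650009), was at 20.0 to 28.7 CPM in CONV-R mice (median 25.8) and at 49.4, 36.1, 40.6, 26.6 and 56.0 CPM in GF mice 1, 2, 4, 5 and 6. Of the GF mice, 4 lay above every CONV-R mouse, and GF mouse 5 lay inside the CONV-R range. The mean was 25.1 ± 3.16 CPM (SD, n = 6) and 41.7 ± 11.5 CPM (SD, n = 5), with a log2FC of 0.74 ± 0.17 (edgeR adjusted p = 0.0148), and without GF mouse 6 the adjusted p was 0.0529. Ifit3, the most abundant of the 4 per kilobase averaged over the mice (32.1 CPM per kb in CONV-R and 32.7 in GF mice), ranged from 42.3 to 86.4 CPM in CONV-R mice (median 48.9) and lay at 68.2, 42.4, 59.5, 45.1 and 70.4 CPM in GF mice. CONV-R mouse 3 gave the highest value, and the log2FC was 0.03 ± 0.19 (edgeR adjusted p = 0.949).

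Ifit2 gave a log2FC of -0.15 ± 0.13 (edgeR adjusted p = 0.545), with 107 to 162 CPM in CONV-R and 95.1 to 136 CPM in GF mice. Ifit3b, the near copy of Ifit3, was at 99.6 CPM in CONV-R mouse 3, against 16.6 to 37.7 CPM in the other CONV-R mice and 16.2 to 32.3 CPM in GF mice (log2FC -0.56 ± 0.37, edgeR adjusted p = 0.392). Of the 50-base stretches of Ifit3, 51.2% also occur in Ifit3b, and of those of Ifit3b, 45% occur in Ifit3 or elsewhere, so the division of reads between this pair is uncertain. The log2 ratio of Ifit1 over Ifit3 was -1.12 ± 0.28 (SD, n = 6) in CONV-R and -0.47 ± 0.20 (SD, n = 5) in GF mice. Ifit1 over Ifit2 differed by 0.84 and Ifit1 over Ifit3b by 1.05, and none of these 3 ratios overlapped between the groups. The ratios among Ifit2, Ifit3 and Ifit3b overlapped. The ISRE cores printed above were present for Ifit1 as well as for Ifit3 and Ifit3b, and the letters GAAANNGAAA were not in the window searched for Ifit2.

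**Figure D2:**
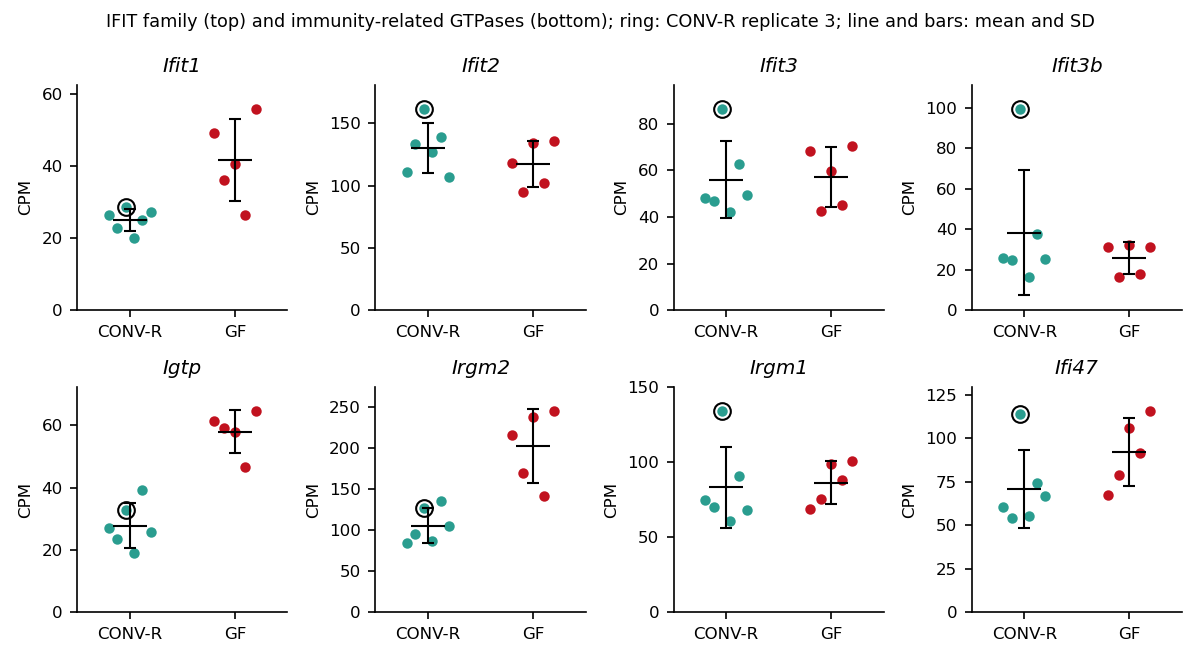
CPM of the IFIT family (top row) and the immunity-related GTPases (bottom row) in each mouse, with the mean and SD of each group (vertical axis, CPM from 0; CONV-R, n = 6; GF, n = 5; ring, CONV-R mouse 3). Ifit1, Igtp and Irgm2 are higher in GF mice, and CONV-R mouse 3 is the highest CONV-R mouse for all 4 IFIT genes, Irgm1 and Ifi47.

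The transcription factors included components of ISGF3. Stat2, the signal transducer particular to type I and type III interferon (chr10:128270559-128292849), was at 125 to 143 CPM in CONV-R mice (median 135) and at 198, 196, 174, 189.8 and 177 CPM in GF mice. All 5 GF mice lay above all 6 CONV-R mice, with 135 ± 6.71 CPM (SD, n = 6) and 187 ± 11.03 CPM (SD, n = 5) and a log2FC of 0.47 ± 0.09 (edgeR adjusted p = 0.00461). Irf9, which gives ISGF3 its DNA binding, was at 57.1 to 71.2 CPM in CONV-R mice (median 64.6) and 81.3, 81.5, 101, 83.8 and 84.8 CPM in GF mice. The groups did not overlap, with a log2FC of 0.43 ± 0.11 (edgeR adjusted p = 0.0252). The Irf9 call was lost without CONV-R mouse 5 or without GF mouse 4, the adjusted p reaching 0.0648.

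Irf8, a factor of myeloid cells that is also interferon-inducible, was at 36.2 to 49.6 CPM in CONV-R mice (median 43.8) and at 45.0, 62.5, 62.4, 76.4 and 74.1 CPM in GF mice. GF mouse 1 lay inside the CONV-R range and the others above it, with a log2FC of 0.55 ± 0.14 (edgeR adjusted p = 0.0250). It did not pass without CONV-R mouse 4, 5 or 6 or without GF mouse 6, the adjusted p reaching 0.0724. Irf7, which drives interferon production, was at 23.0 to 28.9 CPM in CONV-R and at 21.8 to 50.5 CPM in GF mice (log2FC 0.41 ± 0.18, edgeR adjusted p = 0.181). Irf1, a factor induced through GAS elements and the most abundant of the 5 per kilobase averaged over the mice, was at 95.5 to 165 CPM in CONV-R mice (median 116) and at 99.0, 82.8, 115, 101 and 94.0 CPM in GF mice. Its estimate was negative, at -0.26 ± 0.14 (edgeR adjusted p = 0.270), with CONV-R mouse 3 again the highest.

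**Figure D3:**
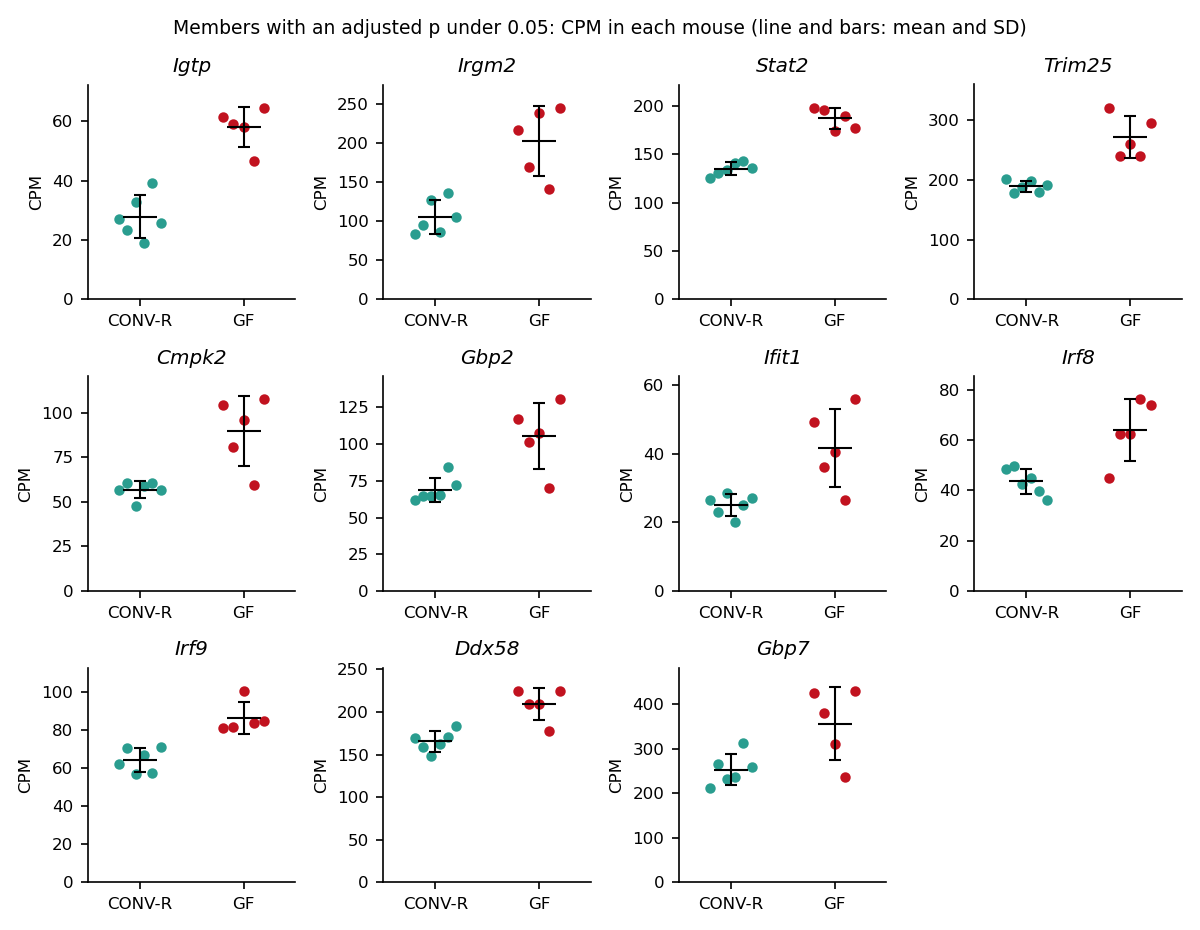
CPM in each mouse of the 11 interferon-stimulated genes with an adjusted p under 0.05, with the mean and SD of each group (vertical axes, CPM from 0; CONV-R, n = 6; GF, n = 5). The groups are apart for Igtp, Irgm2, Stat2, Trim25 and Irf9 and overlap for Cmpk2, Gbp2, Ifit1, Irf8, Ddx58 and Gbp7.

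Among the guanylate-binding proteins, GTPases that coat pathogens and their vacuoles, 2 of 5 passed and all 5 estimates were positive. Gbp2 was at 62.1 to 84.2 CPM in CONV-R mice (median 65.1) and at 117, 102, 108, 70.1 and 131 CPM in GF mice. GF mouse 5 lay inside the CONV-R range and the other GF mice above it, with a log2FC of 0.61 ± 0.14 (edgeR adjusted p = 0.0136). Without both CONV-R mouse 3 and GF mouse 6 its adjusted p was 0.0574. Gbp7 was at 211 to 313 CPM in CONV-R mice (median 248) and at 424, 381, 310.2, 236 and 431 CPM in GF mice, with 2 GF mice inside the CONV-R range. Its log2FC was 0.49 ± 0.15 (edgeR adjusted p = 0.0496), and it did not pass when any 1 mouse other than CONV-R mouse 5 or GF mouse 5 was left out, the adjusted p reaching 0.140. Of its 50-base stretches, 12.7% occur in other genes. Gbp4, the most abundant of the 5 per kilobase (63.6 CPM per kb in CONV-R and 73.1 in GF mice), was at 336 to 675 CPM in CONV-R mice (median 439) and at 477, 595, 456, 711 and 498 CPM in GF mice. The groups overlapped widely for Gbp4 (log2FC 0.20 ± 0.18, edgeR adjusted p = 0.540). Gbp3 had a log2FC of 0.45 ± 0.17 (edgeR adjusted p = 0.124) and Gbp5 one of 0.44 ± 0.15 (edgeR adjusted p = 0.0795). Gbp5 passed without CONV-R mouse 3 (adjusted p = 0.0367).

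Of the sensors, 1 of 4 passed. Ddx58, which encodes the viral RNA sensor RIG-I and was the most abundant of the 4 per kilobase (23.5 CPM per kb in CONV-R and 29.7 in GF mice), was at 149 to 184 CPM in CONV-R mice (median 166) and at 224, 209, 209.7, 178 and 225 CPM in GF mice. Only GF mouse 5 fell inside the CONV-R range, with a log2FC of 0.34 ± 0.10 (edgeR adjusted p = 0.0443). This call was lost when any 1 mouse other than GF mouse 5 was left out, the adjusted p reaching 0.106. Ifih1, which encodes the related sensor MDA5, had 164 to 198 CPM in CONV-R and 160.2 to 230.3 CPM in GF mice (log2FC 0.10 ± 0.11, edgeR adjusted p = 0.650). Dhx58, which encodes their regulator LGP2, gave -0.07 ± 0.20 (edgeR adjusted p = 0.878). Zbp1, a sensor of left-handed nucleic acid helices, was at 1.53 to 6.04 CPM over all mice (log2FC 0.59 ± 0.41, edgeR adjusted p = 0.415).

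In the ISG15 and ADP-ribosylation group, 1 of 5 passed. Trim25, the ubiquitin ligase that activates RIG-I (chr11:88999376-89020293), was at 178 to 201 CPM in CONV-R mice (median 189.7) and at 321, 241, 259.6, 241 and 296 CPM in GF mice. The lowest GF value was above the highest CONV-R value, with 189 ± 9.59 CPM (SD, n = 6) against 272 ± 35.6 CPM (SD, n = 5) and a log2FC of 0.52 ± 0.10 (edgeR adjusted p = 0.00462). Isg15, the ubiquitin-like protein after which the group is named, has the 3 overlapping ISRE cores printed above and was close to the detection limit. It had 85 counts in all CONV-R and 49 counts in all GF libraries, at 0.683 to 3.19 CPM and 0.132 to 1.69 CPM, and its log2FC of -0.58 ± 0.61 (edgeR adjusted p = 0.626) has a wide error at this depth. Usp18, which removes ISG15 from proteins, gave 0.07 ± 0.14 (edgeR adjusted p = 0.819). Parp9 and Parp14, ADP-ribosyltransferase family members, gave 0.13 ± 0.11 and 0.16 ± 0.09 (edgeR adjusted p = 0.485 and 0.301). Parp14 was the most abundant of the 5 per kilobase, at 457 to 512 CPM in CONV-R mice (median 498) and at 546, 526, 577, 499 and 627 CPM in GF mice, so that GF mouse 5 alone lay inside the CONV-R range.

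Of the 12 Mx and other antiviral effectors, only Cmpk2 passed. Cmpk2, a mitochondrial nucleotide kinase (chr12:26469204-26479837), was at 47.8 to 60.4 CPM in CONV-R mice (median 57.8) and at 104, 80.6, 95.6, 59.6 and 108 CPM in GF mice. GF mouse 5 lay inside the CONV-R range and the others above it, with a log2FC of 0.66 ± 0.14 (edgeR adjusted p = 0.00897), and Cmpk2 passed in every alternative tried. Its neighbour Rsad2, which encodes the radical SAM enzyme viperin, was at 95.5 to 151 CPM in CONV-R mice (median 129.9) and at 209, 167, 145, 106 and 268 CPM in GF mice. The log2FC of Rsad2 was 0.48 ± 0.18 (edgeR adjusted p = 0.124), and the gene passed without GF mouse 5 (adjusted p = 0.0241). Ifi44 followed Rsad2 in this, at 0.44 ± 0.16 (edgeR adjusted p = 0.109) and an adjusted p of 0.0303 without GF mouse 5.

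Xaf1, a pro-apoptotic factor, had a log2FC of 0.40 ± 0.12 (edgeR adjusted p = 0.0532), with 63.8 to 78.6 CPM in CONV-R and 78.3 to 115 CPM in GF mice, and passed without GF mouse 2 or 6 (lowest adjusted p 0.0377). Ifi35 had 0.63 ± 0.21 (edgeR adjusted p = 0.0815) and passed without CONV-R mouse 1 or GF mouse 2 (lowest adjusted p 0.0325). Bst2, the tetherin that holds budding virions at the membrane and the most abundant of the 12 per kilobase (117 CPM per kb in CONV-R and 99.9 in GF mice), was at 57.5 to 204 CPM in CONV-R mice (median 86.8) and at 78.1, 42.0, 169.9, 90.8 and 70.3 CPM in GF mice. Its values overlapped throughout (log2FC -0.23 ± 0.33, edgeR adjusted p = 0.738). Mx1 and Mx2, dynamin-like GTPases, gave -0.20 ± 0.52 and -0.09 ± 0.20 (edgeR adjusted p = 0.864 and 0.843), with Mx1 at 0.543 to 5.03 CPM over all mice. C57BL/6 mice are known to carry a disabled Mx1 gene. Samhd1, a nucleotide phosphohydrolase, Isg20, an exonuclease, Rtp4, a receptor chaperone, and Ifi27 gave estimates from -0.03 to 0.14 (edgeR adjusted p of 0.758 to 0.968).

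None of the 5 members of the OAS family, which make or relate to the enzymes that make the activator of RNase L, passed the test of edgeR, and at an unadjusted p under 0.05 only 1, Oasl1, was higher in GF mice. All 5 estimates were positive. Oasl2, the most abundant of the 5 per kilobase (29.0 CPM per kb in CONV-R and 31.9 in GF mice), was at 145 to 282 CPM in CONV-R mice (median 165) and at 228, 165, 196, 201 and 227 CPM in GF mice. The CONV-R maximum was again that of mouse 3, and the log2FC was 0.14 ± 0.15 (edgeR adjusted p = 0.641). Oasl1 had 3.07 to 9.39 CPM in CONV-R and 6.35 to 13.9 CPM in GF mice (log2FC 0.73 ± 0.30, edgeR adjusted p = 0.155). Oas1a (0.17 ± 0.17), Oas2 (0.42 ± 0.43) and Oas3 (0.52 ± 0.49) had edgeR adjusted p of 0.576 to 0.612, and 57.6% of the 50-base stretches of Oas1a also occur in Oas1g or Oas1b. CONV-R mouse 3 did not lead the whole family, since it had the lowest Oas1a and the lowest Oas2 of the 11 mice.

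**Figure D4:**
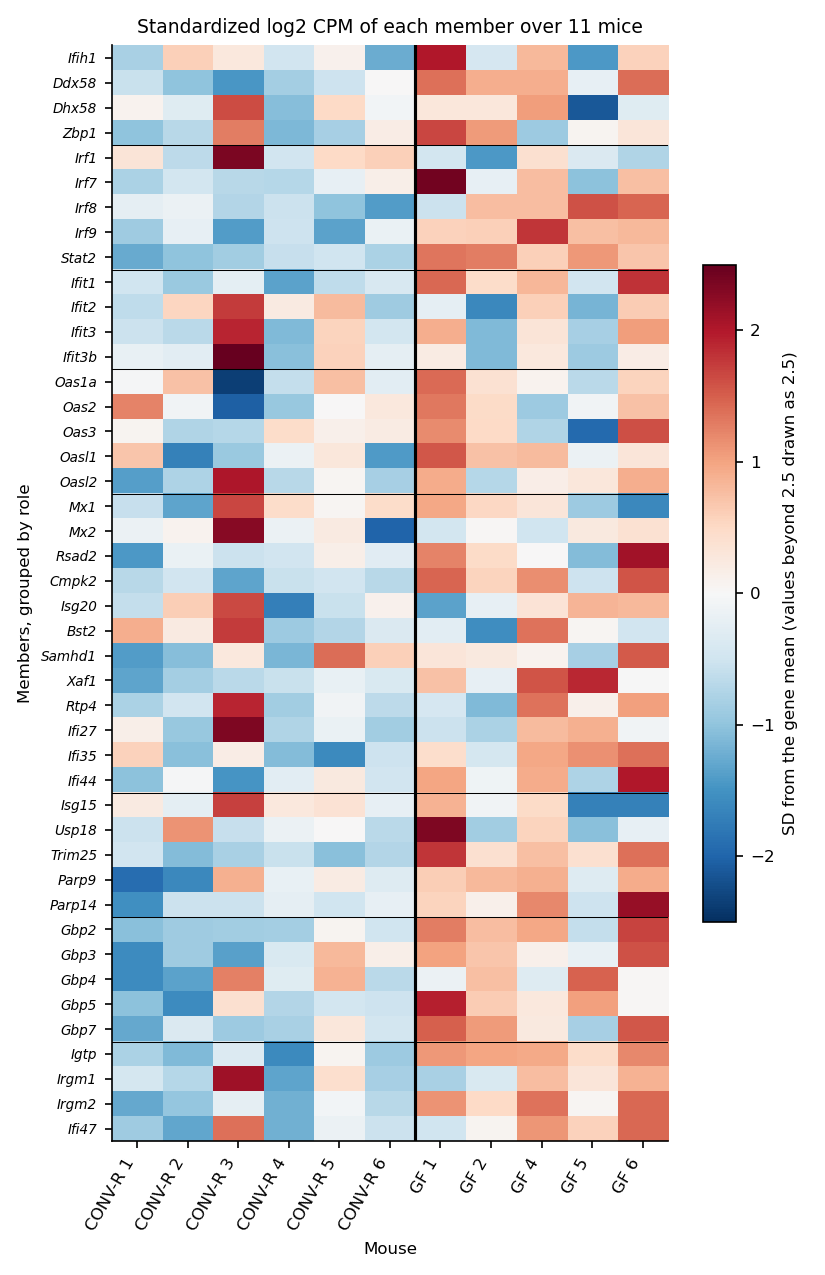
Standardized log2 CPM of the 44 interferon-stimulated genes in each of 11 mice (columns, 6 CONV-R then 5 GF mice; color, SD from the mean of the gene over the 11 mice). CONV-R mouse 3 is the highest of all mice for 14 members, among them Irf1, Ifit3b, Mx2, Ifi27 and Irgm1, and is low for Cmpk2, Irf9, Oas1a and Oas2.

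The members varied from mouse to mouse about as much as other genes did. Their median SD on the log2 scale was 0.29 in CONV-R and 0.32 in GF mice, against 0.30 and 0.34 over all tested genes. Within the groups the mice did not keep 1 order over the members. GF mouse 5 was the GF mouse inside the CONV-R range for Ddx58, Ifit1, Cmpk2 and Gbp2, whereas for Irf8 it was the highest of all 11 mice. Of the 11 members past the threshold, GF mice 1, 2, 4, 5 and 6 had 10, 11, 10, 6 and 11 above every CONV-R mouse. GF mouse 6 was the highest of all mice for 7 of these 11 members. The 11 passed because they were higher in GF mice, so high counts follow in part from that choice and are only a description. Summed Kupffer cell markers in the same GF mice were 288, 357, 197, 212 and 931 CPM. A relation between these sums and the counts was not tested.

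The rest of the interferon pathway was described with a list of 118 further genes, of which 111 were in the table and 101 were tested, and 14 of these were higher and 3 lower in GF mice (16.8% of those tested, against 7.48% of all genes). Of the 11 interferon genes, Ifnb1, Ifna1, Ifna2, Ifna4, Ifna5, Ifna13 and Ifne were not listed in the count table, and each has 1 exon in every transcript of GENCODE M21. Of 1331 such protein-coding genes, 1 was listed, so these interferons were not analysed here. Ifng had 4 counts in all CONV-R and 2 in all GF libraries, Ifnl2 had 2 and 3, and Ifnl3 had 0 in both, so no difference in these was detectable at this depth. Ifnk was tested at 0 to 2.40 CPM (log2FC -0.72 ± 0.63, edgeR adjusted p = 0.538).

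Of the receptors, Ifngr1, the ligand-binding chain for interferon gamma, was at 57.1 to 64.3 CPM in CONV-R mice (median 61.4) and at 82.6, 81.7, 108, 65.8 and 123 CPM in GF mice. These values did not overlap (log2FC 0.60 ± 0.14, edgeR adjusted p = 0.0154), and without GF mouse 6 the adjusted p was 0.0511. Ifngr2 (0.08 ± 0.15), Ifnar1 (-0.02 ± 0.12), Ifnar2 (-0.03 ± 0.10) and Il10rb (-0.10 ± 0.15), the last a chain shared by the type III interferon receptor, had edgeR adjusted p of 0.766 to 0.955. Ifnlr1, with 1 count in all CONV-R and 37 in all GF libraries, was at 0 in 7 of the 11 libraries and was not tested. Stat3, which carries signals of interleukins more than of interferons, rose with a log2FC of 0.50 ± 0.12 (edgeR adjusted p = 0.0149) and no overlap, from 85.9 to 111 CPM in CONV-R to 114 to 155 CPM in GF mice.

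Of the receptor kinases, Jak1 had a log2FC of 0.35 ± 0.11 (edgeR adjusted p = 0.0609) and Tyk2 -0.07 ± 0.15 (edgeR adjusted p = 0.843). Jak2, the kinase of Ifngr2, was lower in GF mice, at 135 to 169.5 CPM against 173 to 204 CPM in CONV-R mice (log2FC -0.35 ± 0.10, edgeR adjusted p = 0.0402). The Jak2 call was lost without CONV-R mouse 2, 4, 5 or 6 or without GF mouse 1, 2 or 6, the adjusted p reaching 0.102.

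Of 11 tested inhibitors, 2 were lower in GF mice (18.2%, against 2.67% of all tested genes). In the other direction 0 passed, against 4.8% of all tested genes. Their estimates were positive for 4 and negative for 7, and a shift of the inhibitors as a group was not tested. Socs3, a feedback inhibitor of JAK kinases, was at 4.42 to 6.44 CPM in CONV-R mice (median 5.38) and at 4.35, 1.93, 1.71, 0.925 and 1.09 CPM in GF mice (log2FC -1.39 ± 0.37, edgeR adjusted p = 0.0275). The groups did not overlap, and the call was lost without CONV-R mouse 4 or 5 or without GF mouse 2, 4 or 6, the adjusted p reaching 0.0649. Tnfaip3, which encodes A20, a brake on NF-kappaB signals, was at 43.2 to 109 CPM in CONV-R mice (median 54.5) and at 38.0, 26.2, 30.2, 27.6 and 35.0 CPM in GF mice, also without overlap (log2FC -0.97 ± 0.21, edgeR adjusted p = 0.00837). CONV-R mouse 3 had the highest Tnfaip3, as it had for many interferon-stimulated genes. None of the 16 tested genes of nucleic acid and Toll-like receptor sensing upstream of the interferons passed in edgeR, and at an unadjusted p under 0.05 there were 2 of the 16 higher and 0 lower in GF mice, a share at the 12.5% of all tested genes.

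**Figure D5:**
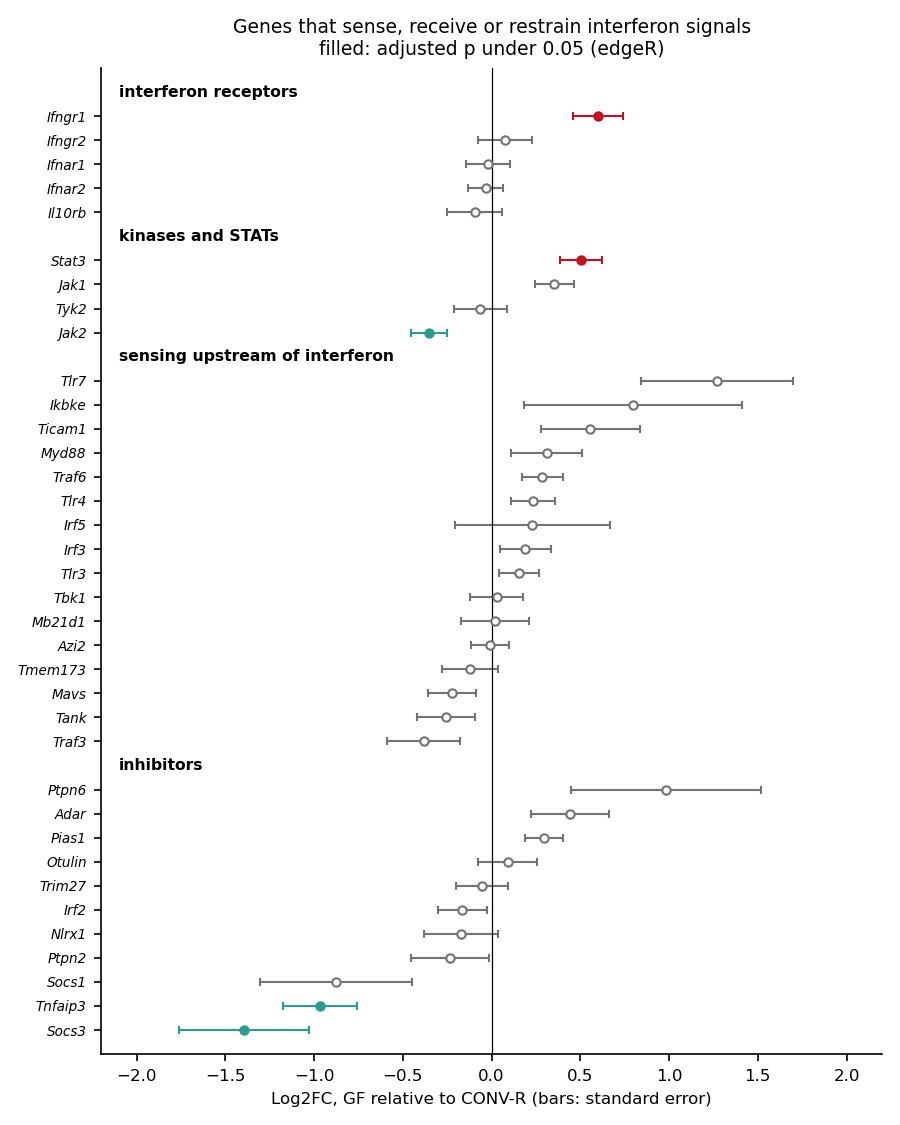
Log2FC of the interferon receptors, kinases and STATs, upstream sensing genes and inhibitors, GF relative to CONV-R, with standard errors as bars (horizontal axis, log2FC; filled points, adjusted p under 0.05). Ifngr1 and Stat3 are filled to the right of 0, and Jak2, Tnfaip3 and Socs3 to the left.

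Of 63 further interferon-stimulated genes tested beside the 44 members, 12 were higher and 0 lower in GF mice (19% of the 63, against 4.8% of all tested genes higher). At an unadjusted p under 0.05 there were 21 higher and 6 lower (Casp4, Cxcl11, Ifitm1, Oas1b, Ddx60 and Tdrd7, named after their values were seen), 19 of the 63 estimates were negative, and the median log2FC was 0.14. The most abundant per kilobase did not move together. Ifitm3 and Ifitm2, which block virus entry, gave 0.14 ± 0.22 and 0.39 ± 0.20 (edgeR adjusted p = 0.757 and 0.259), and Mndal and Ifi203, relatives of the DNA sensor family, gave -0.34 ± 0.19 and -0.18 ± 0.12 (edgeR adjusted p = 0.289 and 0.362). Lgals3bp, a secreted glycoprotein, rose from 417 to 555 CPM in CONV-R to 483 to 932 CPM in GF mice (log2FC 0.63 ± 0.15, edgeR adjusted p = 0.0194), a call lost without CONV-R mouse 4 or 5 or without GF mouse 1 or 6 (adjusted p up to 0.0651). Slfn5 (0.74 ± 0.14, edgeR adjusted p = 0.00360), Helz2 (0.81 ± 0.16, 0.00504) and Shisa5 (0.71 ± 0.16, 0.0104) passed in every alternative tried. Ifi205 had 21 counts in all CONV-R and 134 in all GF libraries (edgeR adjusted p = 0.00966), and the lowest GF mouse was above the highest CONV-R mouse. Cxcl9, a chemokine induced by interferon gamma, was at 79.1 to 268 CPM in CONV-R mice (median 115) and at 243, 195, 335, 183 and 306 CPM in GF mice, with CONV-R mouse 3 the only CONV-R mouse inside the GF range (log2FC 0.91 ± 0.25, edgeR adjusted p = 0.0327). Its sister chemokines, looked up after their values were seen, had negative estimates, Cxcl10 at -0.59 ± 0.38 (edgeR adjusted p = 0.370) and Cxcl11, with 93 counts in all CONV-R and 19 in all GF libraries, at -1.82 ± 0.75 (edgeR adjusted p = 0.158), and CONV-R mouse 3 was the highest of all mice for both.

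Ly6e (0.75 ± 0.19, edgeR adjusted p = 0.0194) lost its call without GF mouse 6 (adjusted p = 0.0639), and Tgtp2, an immunity-related GTPase (0.75 ± 0.20, edgeR adjusted p = 0.0268), without CONV-R mouse 2 or 4 or GF mouse 1, 4 or 6 (up to 0.0852). Tor3a (0.43 ± 0.12, edgeR adjusted p = 0.0383) lost it without CONV-R mouse 2, 4, 5 or 6 or GF mouse 1, 4 or 6 (up to 0.0989), and Rnf213 (0.36 ± 0.10, edgeR adjusted p = 0.0341) without these or GF mouse 2 (up to 0.0910). Cxcl9 lost it without GF mouse 1, 4 or 6 or any CONV-R mouse but mouse 3 (up to 0.0898). Nlrc5, the activator of MHC class I genes (0.50 ± 0.15, edgeR adjusted p = 0.0461), lost it without GF mouse 2, 5 or 6 or any CONV-R mouse but mouse 3 (up to 0.116). Tgtp1, with 28 counts in all CONV-R and 74 in all GF libraries (edgeR adjusted p = 0.0499), passed only when CONV-R mouse 5 was the mouse left out (adjusted p otherwise up to 0.121). Over the 101 further pathway genes, the count above the threshold fell from 17 to 10, 8, 11 and 11 without CONV-R mouse 2, 4, 5 and 6, and to 10 and 6 without GF mouse 1 and 6. The share of all genes past the threshold fell as well, from 7.48% to 5.16%, 4.9%, 5.24% and 5.59% without these CONV-R mice and to 5.6% and 4.74% without these GF mice, so without GF mouse 6 the 6 further pathway genes were close to the share of all genes.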

How the data were processed

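Per the study's methods, liver cells were enriched for CD146 on magnetic beads and sorted as CD31+CD105+CD146+ ECs. The paper reports that GF livers yielded fewer sorted ECs and less total RNA than CONV-R livers. It also reports low viability of the sorted cells, which made amplification necessary. These differences in yield ran along the groups, so their part in the results cannot be told apart from that of the microbiota. Total RNA was amplified as whole-transcriptome cDNA and sequenced as single-end reads of 50 bases. The authors trimmed reads with Trim Galore, aligned them to GRCm38 by STAR, summed them per gene by featureCounts and deposited the raw counts, leaving out 1 GF library with few mapped reads. The annotation release and strand setting are not given in the sources used here. They also deposited DESeq-normalized log2 values, used here only as an alternative.

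The counts were tested with edgeR 4.0.16 (R 4.3.3; filterByExpr, TMM, quasi-likelihood test, group as the only term) over 12905 genes, with Benjamini-Hochberg adjustment at 0.05. CPM were taken from the raw counts with TMM-corrected library totals. Single values were compared with the two-sided exact permutation test over all 462 splits of the mice. The tests were tried on simulated data. Lengths, positions and shared 50-base stretches came from GENCODE M21 (29081 of 29307 genes matched by identifier) and promoters from RefSeq. The members, roles, pathway and marker lists were chosen with earlier results of these data known. All members were named; values per mouse were given for members past the threshold and for the most abundant of each role, and further pathway genes were named if past the threshold, a receptor or among the 5 most abundant, and 1 gene that the rule covers is not reported here. Other genes with per-mouse values (Ifit2, Irgm1, Ifi47, Rsad2 and Isg15 among them) were chosen after their values were seen. Alternatives were DESeq2 1.42.0 and its size factors, limma 3.58.1 (voom, and on the deposited log2 values), other filters, robust dispersion, a replicate block and leaving out mice.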

Additional observations from a re-analysis of the deposited data

Results flagged for a closer look

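In each of 88 groups of mice (44 members in 2 groups), the gap between the highest or lowest mouse and its nearest neighbour was divided by the range of the group, and 12 groups had a ratio above Dixon's 95% critical value. Chance alone gives about 1 in 20 groups where the groups are independent, which genes of the same mice are not. The share was 13.6% for the members and 9.94% over the same groups of all tested genes. CONV-R mouse 3 was the far mouse in 8 of the 12 (66.7%), against 49.8% of such groups over all tested genes. It was the highest CONV-R mouse for Isg15 (3.19 CPM, next 1.13, ratio 0.822), Rtp4 (177 CPM, next 97.2, ratio 0.798), Ifi27 (188 CPM, next 92.3, ratio 0.775), Ifit3b (99.6 CPM, next 37.7, ratio 0.746), Ifi47 (114 CPM, next 74.5, ratio 0.66), Oasl2 (282 CPM, next 192, ratio 0.659) and Irf1 (165 CPM, next 119.6, ratio 0.651), and the lowest for Cmpk2 (47.8 CPM, next 56.6, ratio 0.703).

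In the other 4 groups another mouse stood apart. GF mouse 4 was high for Irf9 (101 CPM, next 84.8, ratio 0.825), and its call was among those lost without that mouse. GF mouse 5 was low for Parp9 (64.9 CPM, next 70.6, ratio 0.751), CONV-R mouse 1 was low for Parp14 (457 CPM, next 497, ratio 0.729), and CONV-R mouse 2 was high for Usp18 (35.2 CPM, next 30.5, ratio 0.648). None of these was removed from the values above.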

How the results depend on the processing

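The 11 members called kept a positive log2FC in every alternative run, and no call reversed. Stat2, Trim25, Cmpk2, Igtp and Irgm2 stayed past the threshold in all of them. DESeq2 called 14 members (adding Xaf1, Ifi35 and Gbp5), its size factors in edgeR 11, robust dispersion 11, limma on the deposited log2 values 11 (without Gbp7, with Xaf1), limma voom 10 (without Gbp7), at least 10 counts in every library 10 of 41 tested (without Gbp7) and no filter 9 (without Ddx58 and Irf9). Over all genes DESeq2 called 1527 of 15540 (9.83%), against 965 of 12905 (7.48%) with edgeR. Leaving out 1 mouse gave 8 to 13 members (0 lower in GF mice), 6 to 22 further pathway genes and 622 to 1260 genes in all. In these runs 5 to 10 members did not overlap (11.4% to 22.7%), against 6.15% to 9.59% of all genes then tested. Without both CONV-R mouse 3 and GF mouse 6, an alternative chosen after seeing the data, 7 members were called, all 7 higher in GF mice. The cause of these changes was not tested.

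With the replicate number as a block (5 pairs, replicate block), 11 members were called, 8 of them shared with the unpaired test: Ddx58, Irf8 and Gbp7 were lost and Ifi35, Gbp5 and Ifi47 gained. The same 10 libraries without the block, added after seeing the data, gave 11 and already lost Ddx58 and Gbp7 and gained Gbp5 and Ifi47, so the block itself changed the calls of Irf8 and Ifi35. The block called 1101 genes in all. The correlations of same-numbered mice were 0.201, 0.0482, -0.0144, 0.024 and 0.0945, and only numbers 1 and 6 correlated best with their own number, so the numbers were not taken as pairs. The lowest counts in any library were those of Isg15 (1), Oas3 (3) and Mx1 (4), which the filter of at least 10 counts in every library left out. Oas2 (16) and Zbp1 (18) came next.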
